A study of Mus musculus with 82 samples.

Results

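The ETS family transcription factors described here are Spi1 (encoding PU.1), Spib (Spi-B), Fli1, Erg, Etv6, Ets1, Ets2, Elf1 and Gabpa. They were chosen by name, as the rows of the gene count tables that carry these symbols, and all 9 of 9 were found among 55376 counted genes. ETS proteins bind DNA through a shared winged helix domain that reads a GGAA core, and the letters around the core separate the subfamilies. PU.1 directs myeloid and B cell development with its close relative Spi-B, FLI1 and ERG maintain hematopoietic stem cells (HSCs) and drive the megakaryocyte programme, and ETV6 is a repressor needed for the persistence of HSCs in bone marrow. ETS1 and ETS2 are targets of MAP kinase signalling, ELF1 acts in blood and endothelial cells, and GABPA is the widely expressed DNA-binding subunit of GABP.

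The series profiled wild-type bone marrow HSCs of male C57BL/6J mice, sorted as LSK CD34- Flk2- CD150+ cells, from young animals of 3 to 4 months (YHSC, 4 mRNA-seq libraries) and old animals of 24 to 26 months (OHSC, 8 libraries). Each YHSC library came from several pooled mice and each OHSC library from a single mouse, so the 2 groups do not hold the same kind of replicate. Old HSCs carrying a lentiviral shRNA with GFP were profiled after culture, where GFP+ cells were sorted. They were also profiled after transplantation into irradiated young female CD45.1 recipients, from which CD45.2+ GFP+ HSCs were sorted as LSK CD48- CD150+ cells. The surface markers used for sorting thus differed between YHSC and OHSC, cultured and transplanted libraries. In each of these experiments 2 libraries carried a control shRNA, 2 carried shRNA1 and 2 carried shRNA2, both directed at a shorter variant of Btaf1, a regulator of the TATA-binding protein, so all of them share old donor cells, the virus and the GFP sort. Common myeloid (CMP), granulocyte-monocyte (GMP) and megakaryocyte-erythroid (MEP) progenitors of young wild-type mice gave 2 libraries each, all of 1 labelled batch. Chromatin was measured in HSCs by ATAC-seq (4 libraries per age used here), by H3K27ac ChIP-seq (2 per age) and by H3K4me3 and H3K27me3 ChIP-seq (2 young libraries each).

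On mm10, 4 members form 2 neighbouring pairs. Fli1 (chr9:32422204-32542861, minus strand) and Ets1 (chr9:32636221-32757820, plus strand) lie 93359 bp apart, and Erg (chr16:95359169-95586593, minus strand) and Ets2 (chr16:95702075-95721051, plus strand) lie 115481 bp apart, each pair pointing away from one another. Gabpa (chr16:84834925-84863779), Spi1 (chr2:91082390-91115756), Etv6 (chr6:134035700-134270158), Elf1 (chr14:79481194-79582494) and Spib (chr7:44525993-44532071, minus strand) stand on their own.

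RefSeq promoters (GRCm38.p6, 250 bases before to 50 bases after the start) were matched for 6 of the 9 symbols, with 9 promoters in all. They were searched on both strands for CCGGAAG, a core of the class of ETS1, FLI1 and GABPA, and for GAGGAAG, the core of PU.1 and Spi-B. The words share the letters GGAAG, and no match to one is a match to the other. The Gabpa promoter was the only one of these 9 with either word, and it holds both. It is printed because the 2 ETS classes meet in it, and capitals mark the words, CCGGAAG being read on the opposite strand.
Gabpa, chr16:84834874-84835173, plus strand: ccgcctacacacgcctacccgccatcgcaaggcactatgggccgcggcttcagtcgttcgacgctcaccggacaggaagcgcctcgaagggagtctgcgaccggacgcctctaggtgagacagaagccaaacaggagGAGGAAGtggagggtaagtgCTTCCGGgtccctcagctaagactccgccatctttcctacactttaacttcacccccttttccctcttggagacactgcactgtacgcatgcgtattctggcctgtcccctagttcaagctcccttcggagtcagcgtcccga
Among all 32851 promoters, 8.86% hold CCGGAAG and 13.6% hold GAGGAAG.

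Erg and Spib are shown because their starts differ in chromatin, as described further on, and here capitals mark CpG dinucleotides. The upstream Erg start, where a wide H3K27me3 domain lay, has 16 of them. The internal Erg start printed here, which carried one of the strongest H3K4me3 peaks of the table, has 4. Another internal Erg start, not printed, has 2 and lay in a weaker H3K27me3 domain. Spib has 2, and the median over all promoters is 7.
Erg, upstream start, chr16:95586544-95586843, minus strand: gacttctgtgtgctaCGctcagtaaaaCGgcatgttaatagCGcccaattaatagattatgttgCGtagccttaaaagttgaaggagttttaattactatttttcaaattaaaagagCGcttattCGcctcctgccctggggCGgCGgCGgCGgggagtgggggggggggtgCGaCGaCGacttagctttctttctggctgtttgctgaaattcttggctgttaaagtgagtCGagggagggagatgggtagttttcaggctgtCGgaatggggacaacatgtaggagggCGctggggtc
Erg, internal start, chr16:95459299-95459598, minus strand: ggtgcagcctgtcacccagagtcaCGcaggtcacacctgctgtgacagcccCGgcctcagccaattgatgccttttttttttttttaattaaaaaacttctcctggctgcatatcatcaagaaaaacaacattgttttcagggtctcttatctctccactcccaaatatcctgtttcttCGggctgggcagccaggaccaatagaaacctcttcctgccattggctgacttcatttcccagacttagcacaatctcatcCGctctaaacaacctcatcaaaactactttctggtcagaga
Spib, chr7:44532022-44532321, minus strand: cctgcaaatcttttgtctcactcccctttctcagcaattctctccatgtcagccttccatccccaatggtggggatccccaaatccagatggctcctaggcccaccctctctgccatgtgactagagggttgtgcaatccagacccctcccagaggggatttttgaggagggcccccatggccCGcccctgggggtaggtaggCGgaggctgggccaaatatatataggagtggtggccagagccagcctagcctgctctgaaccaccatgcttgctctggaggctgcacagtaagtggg

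The 12 YHSC and OHSC libraries held 20475764 to 24654742 counted reads and the 18 others 33177394 to 42737054. Levels are CPM, the reads of a gene relative to the library's total, scaled with TMM over all 30 libraries, and tests are edgeR quasi-likelihood fits on the counts with p-values adjusted over all genes tested and passing below 0.05. YHSC, OHSC and transplanted libraries carried high HSC markers (summed CPM of 7 markers 3059 to 4162), cultured libraries less (1976 to 2275). Granulocyte markers were highest in GMP (summed 71360 to 72030) and erythroid markers in MEP (2014 to 2086), while the 6 megakaryocyte markers summed to only 29.9 to 30.9 in MEP against 634 to 644 in CMP. T cell markers were near 0 throughout, at most 1.38 summed CPM.

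Per kilobase of exon, the scale on which genes can be compared with each other, Etv6 and Fli1 were the most abundant members in YHSC, with a mean of 78.6 and 72.9 CPM per kb. Elf1 followed at 30.9, Spi1 at 23.3, Erg at 22.3 and Gabpa at 19.4. Ets2 (10.2), Ets1 (6.19) and Spib (1.91) were the lowest. The order differed between cell types, since Spi1 led in GMP at 103 CPM per kb and Gabpa led in MEP at 35.5 CPM per kb.

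**Figure D1:**
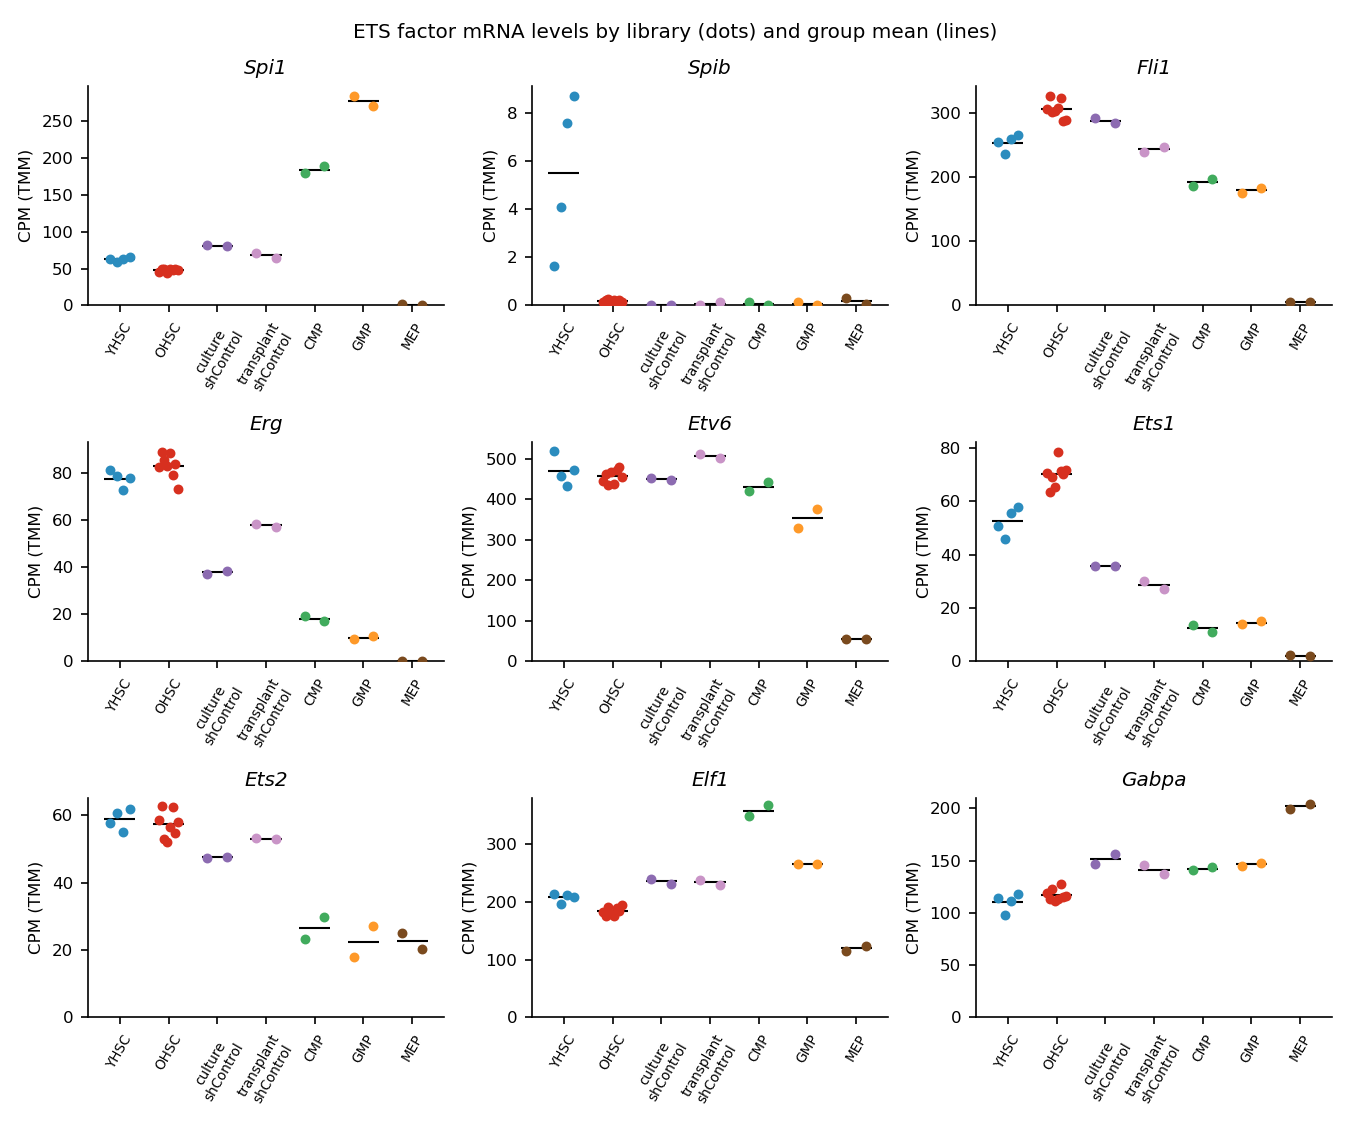
Levels of the 9 ETS factors in TMM-scaled CPM (vertical axes, linear and starting at 0) in single libraries (dots) of 7 groups, with the group mean as a line. Spi1 is highest in GMP and close to 1 CPM in MEP, Spib is seen above 1 CPM only in the 4 YHSC libraries, and Gabpa is highest in MEP.

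Over the 7 groups of YHSC, OHSC, control HSCs after culture or transplantation, CMP, GMP and MEP, the order of levels differed from member to member. Spi1 ran from GMP through CMP, culture, transplantation, YHSC and OHSC down to MEP, and Elf1 from CMP through GMP, culture, transplantation, YHSC and OHSC to MEP. The only neighbours that overlapped were transplantation and YHSC for Spi1, and culture and transplantation for Elf1. Fli1, Erg and Ets1 were each lowest in MEP and higher in every library of these HSC groups than in any progenitor library. These groups come from separate library series, and the labels and the study's methods do not name the same library kits for them, so library series and cell type cannot be told apart in this order. For Fli1, the difference between YHSC and CMP lay only 0.063 on the log2 scale above the median over all genes. Etv6 was also lowest in MEP, but its YHSC (432 to 518 CPM) and OHSC (435 to 479 CPM) libraries overlapped with CMP (420 and 442 CPM). Ets2 was higher in HSCs too, but its CMP, MEP and GMP libraries overlapped. Gabpa was highest in MEP, followed by the cultured controls and GMP, which overlapped, and was lowest in YHSC and OHSC, which overlapped too.

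With age, 5 of the 9 members passed the test, against 20.6% of all 21522 genes tested: Spi1, Spib and Elf1 fell, and Fli1 and Ets1 rose. Only Spib changed by more than 1.5-fold, as did 7.52% of all genes. The median log2 difference of the members was -0.017, beside -0.0073 over all genes.

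PU.1 is required for macrophage, neutrophil and B cell differentiation and is held low in HSCs. Spi1 was at 62.7, 59.2, 63.0 and 66.0 CPM in the YHSC libraries and between 43.4 and 49.8 CPM (median 48.7) in the OHSC libraries. Every OHSC library lay below every YHSC library. The decrease was 1.29-fold (log2 difference -0.37, SE 0.047, adjusted p = 1.87e-06).

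Spib, which encodes a PU.1 relative of B cells and plasmacytoid dendritic cells, was at 1.63, 4.08, 7.56 and 8.67 CPM in YHSC and between 0.0372 and 0.266 CPM (median 0.188) in OHSC. The 4 young libraries held 44 to 235 reads of it and the 8 old ones 1 to 7 reads. It was thus 30.6-fold lower on average in OHSC (log2 difference -4.93, SE 0.41, adjusted p = 1.54e-07), but the young libraries themselves differed by 5.31-fold. These differences ran beside the markers of B cells. The 9 B cell markers summed to 77.6, 87.5, 137 and 139 CPM in the same 4 YHSC libraries and to 33.9 to 41.1 CPM in OHSC, and 6 of the 9 fell while 0 rose. Cd79a, which encodes a chain of the B cell receptor, was at 10.9 to 28.3 CPM in YHSC and 0.273 to 1.17 CPM in OHSC, whereas Vpreb3 and Igll1 stayed below 1 CPM in all 12 libraries. Of the plasmacytoid dendritic cell markers, 2 of 6 tested fell. In bulk libraries, fewer cells of a type and less RNA per cell cannot be told apart, and the part of B cells in the Spib difference was not tested. Without the 2 young libraries highest in B cell markers, the log2 differences were -3.98 for Spib (adjusted p = 2.52e-07) and -0.32 for Spi1 (adjusted p = 0.00133). The 2 young libraries that remained were still above every OHSC library in these markers, so these values do not separate the B cell markers from age.

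**Figure D2:**
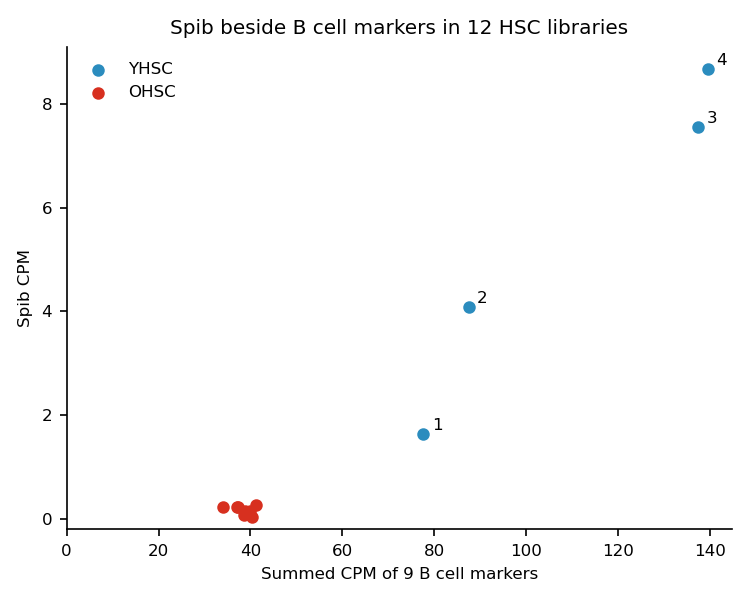
Spib level in CPM (vertical axis) against the summed CPM of 9 B cell markers (horizontal axis) in the 4 YHSC libraries (blue, numbered by replicate) and the 8 OHSC libraries (red). The young libraries higher in the markers are also higher in Spib (1.63 to 8.67 CPM), and the old ones sit in one corner below 0.3 CPM.

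FLI1 and ERG are paralogs that act together in HSCs and megakaryocytes. Fli1 was at 255, 236, 260 and 266 CPM in YHSC and 288 to 326 CPM (median 305) in OHSC, without overlap, a 1.22-fold increase (log2 difference 0.29, SE 0.040, adjusted p = 5.49e-06). Erg overlapped between the ages, at 81.2, 78.4, 72.5 and 77.7 CPM against 73.1 to 88.6 CPM (median 83.2). Its log2 difference of 0.12 (SE 0.050) did not pass (adjusted p = 0.102).

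Ets1, a factor of lymphoid and endothelial cells, rose most among the members. It was at 50.8, 45.7, 55.6 and 57.9 CPM in YHSC and 63.5 to 78.3 CPM (median 70.4) in OHSC, again without overlap (1.35-fold, log2 difference 0.44, SE 0.060, adjusted p = 5.9e-06). Its paralog Ets2 was at 57.6, 60.6, 55.0 and 61.9 CPM in YHSC and 52.1 to 62.8 CPM in OHSC. The Ets2 groups overlapped, with a log2 difference of -0.017 (SE 0.054, adjusted p = 0.881).

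Elf1 was at 214, 197, 212 and 209 CPM in YHSC and 175 to 195 CPM (median 184) in OHSC. The gap between the groups was narrow and the decrease 1.11-fold (log2 difference -0.15, adjusted p = 0.00499), and the call was lost without the filter on low counts (adjusted p = 0.0951) and without the 2 young libraries highest in B cell markers (0.208). Etv6 (432 to 518 CPM against 435 to 479 CPM) and Gabpa (98.1 to 118 CPM against 111 to 128 CPM) overlapped, with log2 differences of -0.020 (adjusted p = 0.817) and 0.11 (adjusted p = 0.111).

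Of 17 other ETS genes, 13 could be tested, and 1 rose (11.9% of all genes) and 3 fell (8.67%). Etv3, a repressor, fell from 114 ± 2.50 CPM (SD, n = 4) to 77.5 ± 3.19 CPM (SD, n = 8; log2 difference -0.53, adjusted p = 9.02e-10). Etv1 fell from 2.36 to 1.24 CPM (adjusted p = 0.022) and Elf3 rose from 0.0803 to 0.381 CPM (adjusted p = 0.0162), and these calls were lost in 3 of 17 and 5 of 13 alternative settings.

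Among 13 factors known to work with ETS proteins, 3 rose and 4 fell, against 11.9% and 8.67% of all genes. Gata2, a GATA factor of stem and progenitor cells, rose from 412 to 537 CPM (log2 difference 0.40, adjusted p = 1.09e-06), and Runx1, the core-binding factor subunit of definitive hematopoiesis, from 139 to 169 CPM (0.30, adjusted p = 0.00234). Gata1, the erythroid and megakaryocyte GATA factor, fell from 11.9 to 4.44 CPM (adjusted p = 0.000236). Of the 6 erythroid markers, of which Gata1 is one, 4 fell and 1 rose with age, and their summed level was 45.9 to 57.8 CPM in YHSC and 29.4 to 90.3 CPM in OHSC. Their part in the Gata1 difference was not tested. Irf4, the partner of PU.1 and Spi-B on composite sites of B cells, fell from 1.26 to 0.297 CPM (adjusted p = 0.000456).

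The genes known as PU.1 or Spi-B targets in myeloid and lymphoid cells were counted in the same way: 10 of 20 fell, against 8.67% of all genes, and 1 rose, against 11.9%, with a median log2 difference of -0.17. The largest decreases were those of Ncf4 (6.09 to 1.66 CPM, adjusted p = 5.33e-08) and Ncf1 (11.1 to 3.08 CPM, adjusted p = 7.03e-08), both subunits of the phagocyte NADPH oxidase. The one that rose was Csf3r, the receptor of G-CSF, from 94.1 to 173 CPM (adjusted p = 4.13e-07). The list holds genes of B cells, granulocytes and monocytes. The B cell markers fell with age, while the granulocyte markers summed to 111 to 226 CPM in YHSC and to a higher 255 to 346 CPM in OHSC, where 1 of 5 tested rose and 1 fell. Of the 5 monocyte and macrophage markers 2 fell and 0 rose, and their sums overlapped (394 to 418 CPM and 357 to 434 CPM). The part of these markers in the count was not tested.

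The known FLI1, ERG and GABPA targets of megakaryocytes counted 7 of 11 tested rising (11.9% of all genes), 2 falling (8.67%) and a median log2 difference of 0.38. Selp, encoding P-selectin, rose 10.0-fold from 45.4 ± 8.64 to 449 ± 22.4 CPM (adjusted p = 2.76e-12), and Itga2b, encoding the integrin CD41, 2.36-fold from 90.5 to 210 CPM (adjusted p = 2.71e-09). Ppbp, a platelet chemokine, fell (3.39 to 1.88 CPM, adjusted p = 0.0484), losing the call in 10 of 17 alternative settings. The 6 megakaryocyte markers are all in this list, so their sums are not a separate reading. They summed to 420 to 455 CPM in YHSC and 772 to 1090 CPM in OHSC.

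**Figure D3:**
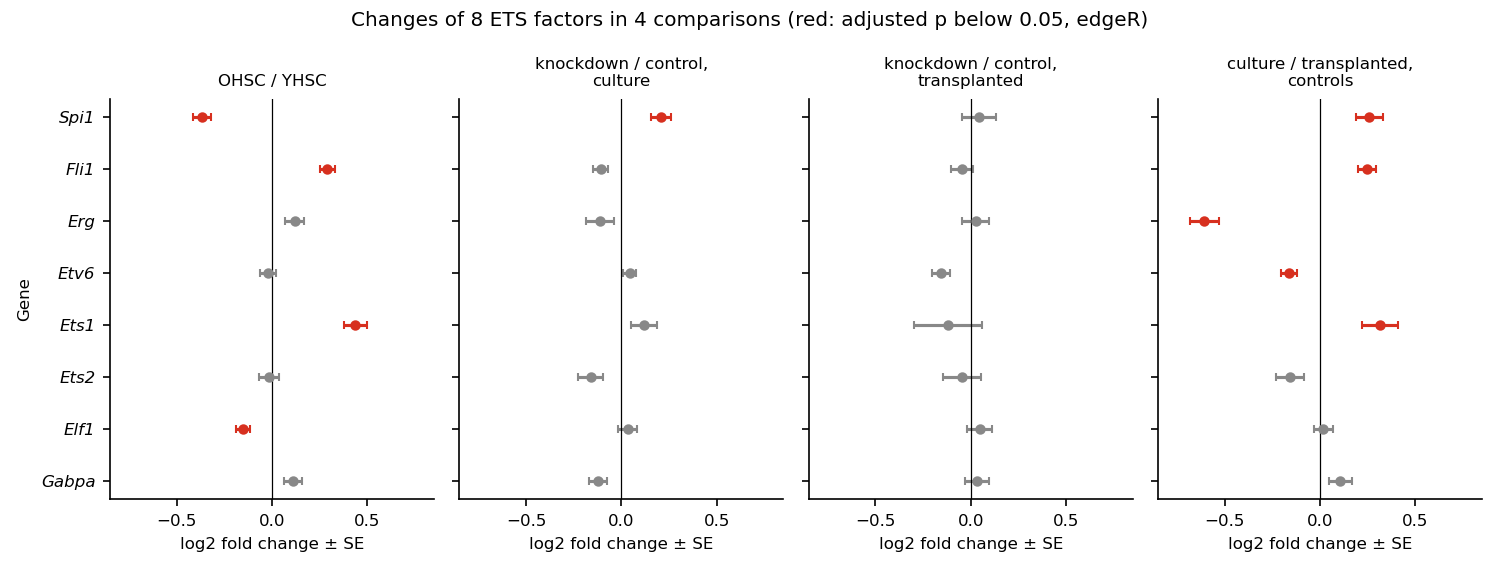
Log2 fold change with its standard error (horizontal axes) of 8 members in 4 comparisons, red where the adjusted p lies below 0.05. Spib is left out, since it was untested in 3 of them, and the age panel holds the 2 members that rose (Fli1, Ets1) and 2 of the 3 that fell (Spi1, Elf1).

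In the knockdown experiments the targeted gene was Btaf1, whose gene-level counts pool the targeted shorter variant with the others. Btaf1 was at 149 and 153 CPM in the cultured controls and 117 to 127 CPM in the 4 cultured shRNA libraries (log2 difference -0.31, adjusted p = 0.00151). After transplantation it was at 158 and 164 CPM in controls and 116 to 136 CPM with the shRNAs (-0.37, adjusted p = 0.791, unadjusted p = 0.000891).

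In culture, 1 of the 8 members tested passed, against 3.36% of all genes, and 0 changed by more than 1.5-fold as well (0.906% of all genes). Spi1 was at 82.0 and 80.5 CPM in the controls, 92.8 and 94.3 CPM with shRNA1, and 96.7 and 92.2 CPM with shRNA2. All 4 knockdown libraries lay above both controls, by 1.16-fold (log2 difference 0.21, SE 0.051, adjusted p = 0.0398). The call was lost whichever of the 6 libraries was left out, with adjusted p from 0.0582 to 0.318. It was also lost in the fit with a block for the replicate number. Fli1 (292 and 284 CPM against 258 to 273 CPM), Ets2 (47.4 and 47.5 CPM against 40.8 to 44.2 CPM) and Gabpa (147 and 157 CPM against 136 to 145 CPM) lay lower in every knockdown library but did not pass (adjusted p = 0.169, 0.244 and 0.197). Erg (37.0 and 38.5 CPM against 32.9 to 36.7 CPM) also lay lower, and Ets1 (35.7 and 35.6 CPM against 38.1 to 39.5 CPM) and Etv6 (452 and 449 CPM against 459 to 477 CPM) higher, without passing (adjusted p = 0.536, 0.438 and 0.633). Elf1 overlapped. With shRNA1 alone, Spi1 was again the 1 member that passed, against 9.05% of all genes. With shRNA2 alone 3 passed, against 8.68%: Spi1, Fli1 (-0.13, adjusted p = 0.0262) and Gabpa (-0.15, adjusted p = 0.0422). No read of Spib was counted in any of the 6 cultured libraries, which allows up to 0.0375 CPM over the 2 controls.

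Among the lists in culture, 2 of 10 other ETS genes fell: Etv4 (5.59 to 2.71 CPM, adjusted p = 0.0101) and Etv5 (71.6 to 52.5 CPM, adjusted p = 0.00345), both of the PEA3 subfamily. Of the PU.1 and Spi-B targets 5 of 18 rose and 0 fell, against 1.70% and 1.66% of all genes. They include Cd68, a lysosomal glycoprotein of macrophages (28.7 to 43.0 CPM, adjusted p = 0.000528), and Itgam, the integrin CD11b (0.377 to 1.73 CPM, adjusted p = 0.00237). Of the megakaryocyte targets, Selp (464 to 551 CPM, adjusted p = 0.000956) and Ppbp (6.18 to 8.95 CPM, adjusted p = 0.0466) rose and Vwf (523 to 431 CPM, adjusted p = 0.00398) fell. None of the 12 partner factors tested passed. Of these 7 genes, Cd68 alone passed in all 12 alternative settings, and Ppbp lost the call in 6. The monocyte and macrophage markers summed to 285 and 289 CPM in the controls, 231 to 235 CPM with shRNA1 and 350 to 353 CPM with shRNA2, so the 2 shRNAs lay on either side of the controls. The granulocyte markers summed to 170 and 176 CPM in the controls and were higher with both shRNAs, at 197 to 198 CPM with shRNA1 and 251 to 262 CPM with shRNA2. Of these 6 markers 4 were at 0 in both controls, and the 1 that could be tested did not pass. The part of these markers in the counts was not tested.

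After transplantation no member passed, as did 0.00% of all genes in the edgeR fit; 1138 of 20350 genes had an unadjusted p below 0.05, and DESeq2 called 60. Etv6 was at 511 and 501 CPM in the controls and 450 to 460 CPM in the 4 shRNA libraries, without overlap (log2 difference -0.16, SE 0.049, unadjusted p = 0.011, adjusted p = 0.852). The other 7 tested members overlapped between the groups. Ets1 was the most variable of them, at 30.2 and 27.2 CPM in controls, 29.7 and 32.4 CPM with shRNA1 and 20.3 and 23.5 CPM with shRNA2. The difference between the knockdown effects in culture and after transplantation, tested as an interaction, passed for no member, and for 0.210% of all genes.

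Between progenitors, MEP differed from both other types in most members, in a comparison where most genes differ. Against GMP, 7 of 8 members tested passed (61.4% of all genes), of which 6 were lower in MEP (33.7% of all genes). Against CMP, which shares the MEP libraries with the first comparison, the same numbers passed (64.6% of all genes, 35.6% lower). Spi1 was at 1.32 and 0.977 CPM in MEP, 284 and 271 CPM in GMP and 179 and 190 CPM in CMP, 249-fold below GMP (log2 difference -7.96, SE 0.11, adjusted p = 1.76e-15).

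Erg fell to 0.139 and 0.209 CPM in MEP, which is 4 and 6 reads, from 9.53 and 10.7 CPM in GMP and 19.2 and 17.0 CPM in CMP (58.5-fold and 102-fold lower). Fli1 was at 6.12 and 5.03 CPM in MEP, 176 and 184 CPM in GMP and 187 and 198 CPM in CMP (33.4-fold and 34.9-fold lower). Both genes belong to the megakaryocyte programme, whose markers were also far lower in these MEP libraries than in CMP. The megakaryocyte target list holds all of these markers, and 11 of 11 genes tested in it were lower in MEP than in CMP. Against GMP, 6 were lower and 3 higher, beside 27.7% of all genes higher. Among those higher than in GMP were Gp1ba, a subunit of the von Willebrand factor receptor (9.86 against 0.498 CPM), and Vwf (19.9 against 3.50 CPM).

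Etv6 (56.6 and 55.0 CPM in MEP), Ets1 (2.29 and 1.88 CPM) and Elf1 (116 and 123 CPM) were also lower in MEP than in GMP, by 6.54-fold, 7.20-fold and 2.30-fold, with adjusted p from 7.44e-13 to 2.82e-08. Gabpa alone was higher, at 200 and 205 CPM in MEP against 145 and 148 CPM in GMP and 141 and 144 CPM in CMP (log2 difference 0.41, SE 0.053, adjusted p = 1.2e-05, and 0.49 against CMP). Ets2, at 24.9 and 20.3 CPM in MEP, overlapped with GMP (17.8 and 27.1 CPM) and did not pass (adjusted p = 0.9). Spib was untested here, with 11 reads over both MEP libraries.

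The known PU.1 and Spi-B targets followed the cell types, with 18 of 20 lower in MEP than in GMP (33.7% of all genes) and 19 of 20 lower than in CMP (35.6%). None was higher, against 27.7% and 28.9% of all genes. Csf2rb, the common beta chain of the IL-3 and GM-CSF receptors, was at 0.174 CPM in MEP against 133 CPM in GMP. Among the partners, Gata1 was highest in MEP (511 CPM against 7.63 CPM in GMP and 123 CPM in CMP), together with Tal1 (106, 10.4 and 34.2 CPM). Irf8 and Cebpa, which act with PU.1 in monocytes and granulocytes, were at 0.852 and 0.139 CPM in MEP and 605 and 83.5 CPM in GMP.

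GMP differed from CMP in 4 of 8 members (34.8% of all genes), and by more than 1.5-fold in 2 (16.7%). Spi1 was 1.54-fold higher in GMP (log2 difference 0.62, SE 0.061, adjusted p = 5.55e-06). Erg was 1.75-fold lower (-0.81, adjusted p = 0.00205), Elf1 1.32-fold lower (-0.40, adjusted p = 6.82e-05) and Etv6 1.19-fold lower (-0.26, adjusted p = 0.00519). The Etv6 call was lost in 1 of 10 alternative settings (adjusted p = 0.0765). The PU.1 target list was mixed, 13 of 20 genes being higher (18.8% of all genes) and 4 lower (16.0%) in GMP, among them Fcgr3, an Fc receptor (424 against 43.7 CPM), and Flt3, a receptor of early lymphoid and myeloid progenitors (20.3 against 228 CPM).

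Young HSCs and CMP differed in depth, and the HSC libraries alone carried spike-in RNAs, so cell type and library series cannot be told apart. The median log2 difference over all genes was 0.33, and each difference is also given relative to that shift; 8 of 9 members passed, as did 81.1% of all genes. Spi1 was 2.96-fold lower in YHSC (log2 difference -1.56, or -1.89 relative to the median). Elf1 (-0.79, or -1.12) and Gabpa (-0.38, or -0.71) were lower too. Erg (2.09, or 1.76), Ets1 (2.08, or 1.75) and Ets2 (1.14, or 0.82) were higher in YHSC. Fli1 (0.39, or 0.063) passed, and Etv6 (0.12, or -0.21) did not pass (adjusted p = 0.0746). Spib (6.35, or 6.02) was at 4 reads over the CMP libraries, and its call was lost without either of them (adjusted p up to 0.0876). Against 47.6% of all genes higher and 33.5% lower, of the other ETS genes 9 of 12 tested were higher in YHSC and 1 was lower, of the partners 5 and 7 of 13, of the PU.1 and Spi-B targets 1 and 15 of 20, and of the megakaryocyte targets 8 and 3 of 11. Granulocyte markers summed to 111 to 226 CPM in YHSC against 17816 to 21775 CPM in CMP, and monocyte markers to 394 to 418 against 717 to 807 CPM. Megakaryocyte markers summed to 420 to 455 against 634 to 644 CPM, and B cell markers to a higher 77.6 to 139 against 45.8 to 48.8 CPM. The part of these markers in the list counts was not tested. The YHSC libraries are those of the age comparison.

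Cultured and transplanted control HSCs, which came from separate experiments, differed in 5 of 8 members (48.3% of all genes), and by more than 1.5-fold in 1 (27.8%). Erg was at 37.0 and 38.5 CPM in culture and 58.2 and 57.1 CPM after transplantation, 1.52-fold lower in culture (log2 difference -0.61, SE 0.076, adjusted p = 0.000236). Fli1 went the opposite way, with 292 and 284 CPM in culture and 240 and 248 CPM after transplantation (0.25, adjusted p = 0.00245). Spi1 (0.26, adjusted p = 0.0161) and Ets1 (0.32, adjusted p = 0.0221) were higher in culture and Etv6 (-0.16, adjusted p = 0.0116) lower, and these 3 calls were lost without either of the cultured controls (adjusted p up to 0.115, 0.129 and 0.146). Of the 11 megakaryocyte targets tested, 4 were higher in culture (24.0% of all genes), among them Pf4 (312 against 40.4 CPM, adjusted p = 6.31e-08) and Itga2b (520 against 143 CPM, adjusted p = 8.14e-08), and 2 were lower (24.3% of all genes), Tek (43.4 against 88.3 CPM, adjusted p = 8.69e-06) and Pdgfb (1.198 against 2.79 CPM, adjusted p = 0.0229). Of the 7 HSC markers 5 were lower in culture, their summed level being 1976 to 2025.9 CPM against 3385 to 3453 CPM. The megakaryocyte markers, all in the target list, summed to 1372 to 1404 CPM in culture against 428 to 609 CPM. Erythroid markers summed to 135 to 137 against 37.5 to 59.7 CPM. Monocyte markers summed to 285 to 289 against 497 to 530 CPM, and granulocyte markers to 170 to 176 against 184 to 331 CPM. The part of these markers in the counts was not tested. Of the other ETS genes 1 of 10 was higher in culture and 6 were lower, of the partners 6 and 3 of 12, and of the PU.1 and Spi-B targets 6 and 8 of 18. These libraries are also the controls of the knockdown comparisons. Culture, the surface markers used for sorting and the experiment cannot be told apart.

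Across all 30 libraries, Fli1 and Etv6 had the most similar patterns of any pair of members (Pearson's r = 0.99 of log2 CPM), followed by Erg and Ets1 (0.93). Gabpa ran against Ets1 (-0.85) and Erg (-0.83). Among 15885 genes, the closest to Spi1 were Adam15, Mical1 and Myo1f (0.99), to Fli1 Cpne3, Cers5 and Tmem159 (0.99), to Erg Zfp521, Sigirr and Treml2 (0.99), and to Etv6 Atp2a3, Dock2 and Ppp1r18 (0.99). Ets1 was nearest to Mocos, Armcx2 and Azin2 (0.97), Ets2 to Castor1, Cdkn1c and 8430419K02Rik (0.97), Elf1 to Hp1bp3 (0.98), Zfp422 (0.96) and Lyn (0.95), and Gabpa to Rars2, Tmem70 and Sgta (0.96). The 30 libraries stand for few cell types and experiments, which the points share, and Spib was too low for such a comparison.

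Chromatin accessibility at the members was largely alike between the ages. Of 156 ATAC-seq regions from 5 kb upstream of a member to its end, 136 could be tested, and 5 of them (3.68%) were called (over 1.5-fold different, with adjusted p below 0.01), against 13.0% of all 89245 regions. Of the 5, 4 gained and 1 lost accessibility.

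Erg held 2 of the regions that gained. The region chr16:95579230-95580370, 6793 bp into the gene, had 2.74, 2.94, 3.44 and 2.98 CPM in YHSC and 4.74, 6.06, 5.14 and 5.92 CPM in OHSC (log2 difference 0.86, SE 0.16, adjusted p = 1.26e-05). The region chr16:95385352-95386058, 200888 bp from the start, had 2.62, 1.07, 2.10 and 1.68 CPM in YHSC and 3.15, 4.56, 4.32 and 3.66 CPM in OHSC (1.04, SE 0.20, adjusted p = 3.4e-05). In both, every old library was above every young one. The middle 300 bases of the first are printed because H3K27ac was also called there, with CpG dinucleotides again in capitals, 5 in all beside a median of 4 over all regions.
Erg, intronic region on mm10, chr16:95579651-95579950, plus strand: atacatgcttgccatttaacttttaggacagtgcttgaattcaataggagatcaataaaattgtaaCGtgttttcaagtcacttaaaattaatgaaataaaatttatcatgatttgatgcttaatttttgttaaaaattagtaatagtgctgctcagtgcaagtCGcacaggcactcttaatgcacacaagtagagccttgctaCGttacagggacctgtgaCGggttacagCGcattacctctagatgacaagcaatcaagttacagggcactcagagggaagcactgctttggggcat

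Etv6 gained 1 of 54 regions, chr6:134158232-134158835 (4.40, 4.34, 3.21 and 3.56 CPM in YHSC, 5.94, 7.13, 5.49 and 6.62 CPM in OHSC, log2 difference 0.72, adjusted p = 8.59e-05), and Elf1 gained 1 of 16, chr14:79574401-79574964 (2.02, 1.93, 1.72 and 1.95 CPM against 2.70, 3.60, 3.15 and 2.69 CPM, 0.68, adjusted p = 0.00527). The Elf1 call was lost when any of 6 of the 8 libraries was left out. Ets1 lost 1 of 15, chr9:32685696-32686352, with 7.26, 7.07, 7.02 and 6.88 CPM in YHSC and 4.80, 4.18, 4.79 and 3.98 CPM in OHSC (-0.67, SE 0.13, adjusted p = 6.65e-05). None of the 27 regions at Fli1 or the 7 at Spi1 was called, and Spib, Ets2 and Gabpa had 1 tested region each, not called.

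At any fold change, 19 of the 136 regions (13.97%) passed, against 23.2% of all regions, with 7 up (13.7% of all regions) and 12 down (9.54%). The decreases included the starts of several members. They were small: -0.19 at Etv6 (104 to 90.5 CPM, adjusted p = 0.000183), -0.17 at Gabpa (121 to 107 CPM, adjusted p = 0.000762) and -0.26 at Ets2 (30.3 to 25.2 CPM, adjusted p = 0.00166). The internal start of Ets1, 59835 bp into the gene, went from 66.2 to 52.7 CPM (-0.32, adjusted p = 3.19e-07) while Ets1 mRNA was higher in OHSC. A region 14541 bp into Spi1 went from 26.97 to 22.20 CPM (-0.27, adjusted p = 0.00163), and its middle lies in an H3K4me3 peak annotated as near a start.

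Of 33 H3K27ac peaks assigned to the members, 1 met the rule of the methods (a ratio of the age means above 1.5, with each old library at least 1.2 times each young one), against 11.4% of all 39557 peaks. It was the peak chr16:95578936-95580399 of Erg, which covers the accessible region described above, with a signal of 1.30 and 1.26 in YHSC and 1.98 and 1.96 in OHSC (ratio 1.54). With libraries scaled to the same median, the ratio was 1.44 and it was not called, and limma on the log2 signal gave an adjusted p of 0.204. That scaling also moved the split of all calls from 3602 higher and 898 lower to 2773 higher and 1437 lower.

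Other peaks stayed under the rule. Spib had 6.99 and 5.96 in YHSC and 8.12 and 8.82 in OHSC in its single peak (ratio 1.31), opposite in direction to its mRNA. The upstream peak of Ets1 was at 1.197 and 1.252 in YHSC and 0.935 and 0.956 in OHSC (0.77), and a peak 35889 bp into Ets1 at 1.54 and 2.20 against 2.36 and 2.88 (1.40). At the starts of Etv6 (11.02 and 10.81 mean signal), Ets2 (6.38 and 6.39) and Gabpa (6.82 and 6.10) the age means were close, with ratios of 0.98, 1.00 and 0.89.

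In YHSC, H3K4me3, the mark of active starts, was very high at Fli1 (signal 35.2 and 37.5), at the internal Erg start (36.2 and 35.6) and at Etv6 (31.9 and 36.4), at percentiles 99.9, 99.9 and 99.8 of the 33199 peaks. Ets2 (29.0 and 29.2), Elf1 (27.99 and 29.80) and Gabpa (27.8 and 27.9) followed. Spi1 had a single, lower peak 15222 bp into the gene (8.39 and 8.80), annotated as near a transcription start. Spib also had a single peak (10.2 and 11.9), annotated as in the gene body.

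H3K27me3, laid down by Polycomb, was found at 3 members, Erg, Ets1 and Spib. The domain over the upstream Erg start, chr16:95575000-95593999, had a signal of 1.24 and 1.30, above 98.8% of all domains, and 3 weaker domains followed inside the gene. Among these, chr16:95519000-95530999 (0.329 and 0.345) covered the internal start that was not printed. H3K4me3 at the upstream start (8.07 and 7.47) and H3K27ac (1.39 and 0.847 in YHSC) were far below those of the printed internal start. The accessible region and H3K27ac peak that were higher in OHSC lie inside the upstream domain. Ets1 had the same arrangement, with H3K27me3 (0.705 and 0.705) over its upstream start, H3K4me3 there at 3.54 and 3.48, and H3K4me3 at 20.5 and 21.4 and H3K27ac at 5.01 and 4.05 at the start 59942 bp further in. The Spib domain was short and weak (0.314 and 0.302). Spi1, Fli1, Etv6, Ets2, Elf1 and Gabpa had none. Because H3K27me3 and H3K4me3 were used here in young libraries alone, no age comparison of them was made.

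**Figure D4:**
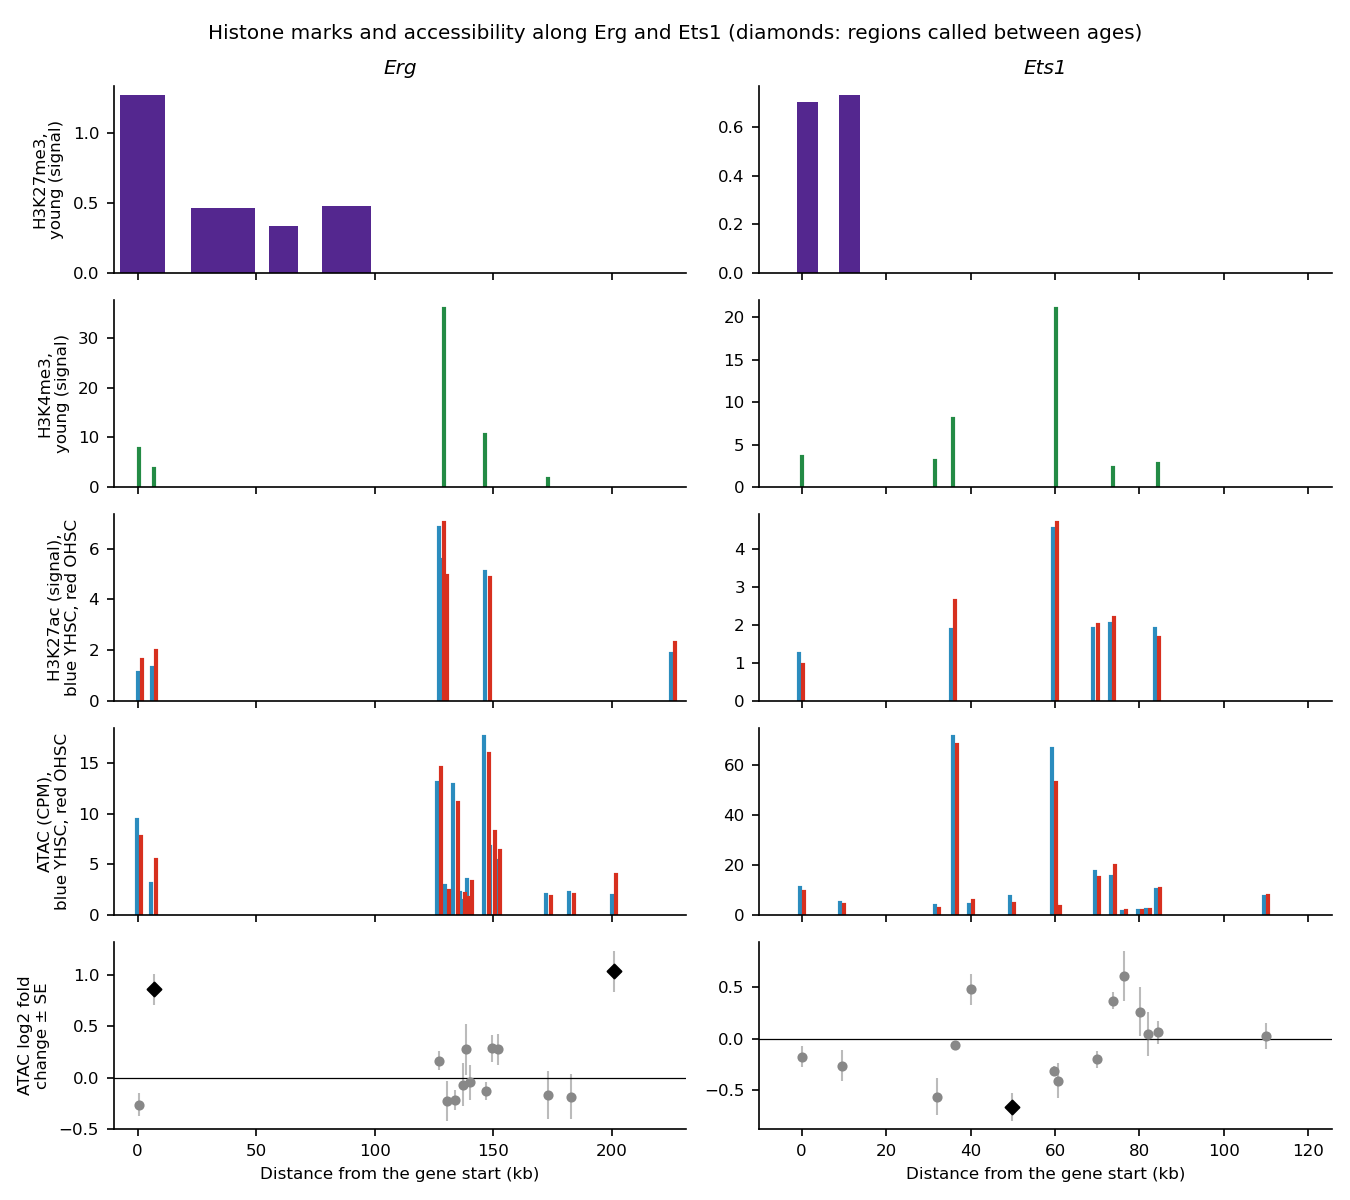
H3K27me3, H3K4me3, H3K27ac and ATAC-seq values along Erg and Ets1 by distance from the gene start in kb, as group means (blue YHSC, red OHSC, drawn side by side) at the middle of each peak or over each H3K27me3 domain, with the ATAC-seq log2 fold change and its standard error in the bottom row. At both genes H3K27me3 covers the upstream start and the highest H3K4me3 stands at an internal start, and 1 of the 2 Erg regions called (diamonds) lies in the H3K27me3 domain.

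The 7-letter words of the 2 ETS classes were then counted in the middle 300 bases of 89242 tested ATAC-seq regions. GAGGAAG, the PU.1 and Spi-B core, was in 29.8% of the 2592 regions that lost accessibility in OHSC, in 15.6% of the 8999 that gained and in 19.7% of those not called. More than 1 kb from any gene start, the shares were 31.2%, 15.5% and 21.1%. CCGGAAG, the other class, was in 2.93% of lost, 2.02% of gained and 4.55% of uncalled regions, and within 1 kb of a start in 8.72%, 1.73% and 11.6%. GAAGGAG, the same letters as GAGGAAG in another order, was in 10.96%, 8.93% and 9.92%. CGCGAAG, the same letters as CCGGAAG in another order, was in 0.656%, 0.178% and 0.993%, the same ranking as for CCGGAAG.

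GC content differed between the classes (median 51.0% in lost, 45.0% in gained and 49.3% in uncalled windows), so the distal shares were also taken within GC classes. In windows of 45 to 50% GC, GAGGAAG was in 36.2% of lost, 16.1% of gained and 22.8% of uncalled regions. CCGGAAG was there in 1.82%, 2.17% and 2.48%, and for it no group was highest in every GC class. For GAGGAAG the ranking was steadier. The lost regions had the highest share in all 5 GC classes, from 22.4% to 36.2%, whereas for GAAGGAG the lost regions were highest in some classes and the gained ones in others. These are counts of letters, not of bound sites, and the words also fit other ETS proteins. At the members themselves, GAGGAAG was in 29 of 136 windows (21.3%, beside 19.6% of all windows), and none of the 5 called regions held either word.

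**Figure D5:**
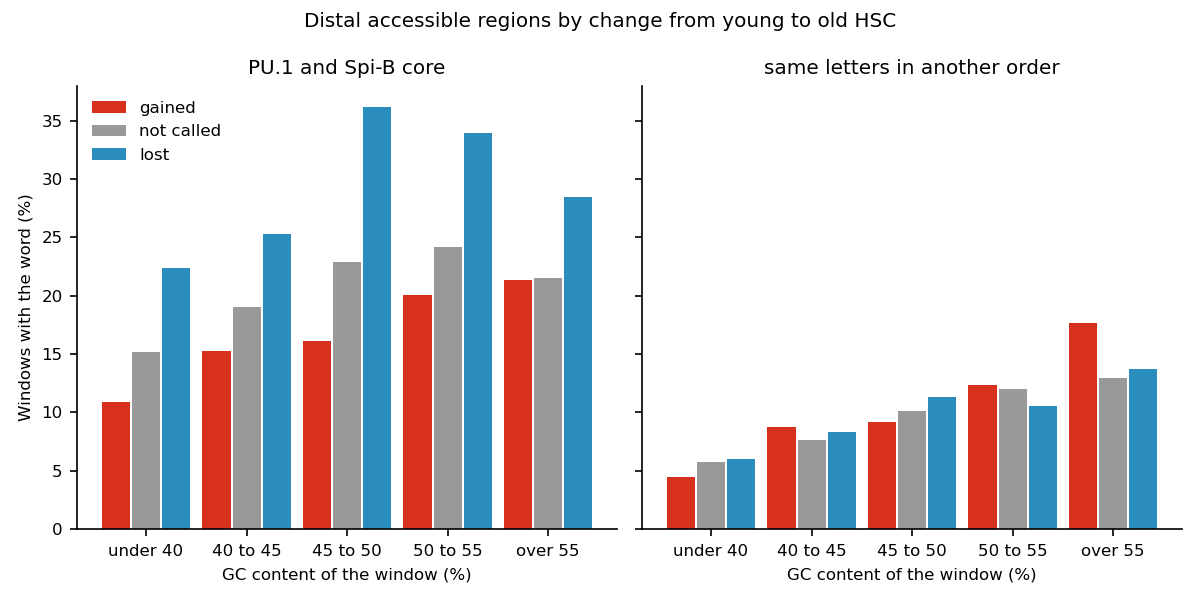
Share of distal accessible windows (vertical axis, percent) that hold the PU.1 and Spi-B core (left) or a word of the same letters (right), by GC class of the window and by change from YHSC to OHSC. On the left the regions lost in OHSC stand highest in each class, up to 36.2%, and on the right no group stands highest in every class.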

How the data were processed

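Reads were counted per gene by the authors with featureCounts after STAR alignment, and the deposited RNA tables hold these raw counts. The deposited ATAC-seq table holds read counts in consensus regions, and the deposited histone tables hold ChIP-seq signal normalized by the authors to sequencing depth. Columns with the authors' own fold changes were not used, nor were 8 columns matching no sample here. The 92 spike-in RNAs were left out.

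Counts were scaled with TMM, filtered with filterByExpr and tested with edgeR 4.0.16 (R 4.3.3, quasi-likelihood, robust, two-sided), with Benjamini-Hochberg adjustment over all genes or regions. Regions needed over 1.5 CPM in 4 libraries. Progenitors, like each knockdown experiment, were fitted together. H3K27ac followed the ratio rule without a test, with limma 3.58.1 as an alternative. Alternatives were DESeq2 1.42.0, its size factors, no filter, each library left out, a replicate block, and each shRNA alone; leaving out both young libraries highest in B cell markers was chosen after seeing the data.

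The members and the gene lists were chosen with earlier results of these data known. All members were named in each comparison, with up to 2 genes per direction of largest fold change in each list and the 3 genes most correlated with each member; Btaf1 and the markers were named besides. One gene that this rule names is not reported here. Transplanted libraries were each pooled from several recipients. For the cultured libraries the sources used here do not name separate cultures, so their p-values measure the spread between libraries, which may be technical. Sums and floors (3 reads) cover counting error only.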

Additional observations from a re-analysis of the deposited data

Results flagged for a closer look

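Etv6 is set apart because its shRNA libraries lay on opposite sides of the controls in the 2 knockdown experiments, although it passed in neither (adjusted p = 0.633 in culture and 0.852 after transplantation, edgeR). Every cultured shRNA library (459 to 477 CPM) lay above both controls (452 and 449 CPM), and every transplanted shRNA library (450 to 460 CPM) lay below both controls (511 and 501 CPM). The interaction, culture minus transplantation, was 0.20 on the log2 scale (SE 0.055, unadjusted p = 0.00275) and did not pass in the edgeR fit (adjusted p = 0.212), while DESeq2 gave an adjusted p of 0.0282. No other member did so, but the share of all genes with this pattern was not counted. In culture, every tested member except Elf1 lay apart from the controls. Among 28 groups of values from 4 or more libraries, tested for a library far from the others, 0 were flagged.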

How the results depend on the processing

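With a fold change above 1.5 also required, the members passing numbered 1 with age (7.52% of all genes), 0 for the knockdown in culture (0.906%), 2 for GMP against CMP (16.7%) and 1 for culture against transplantation (27.8%). For the knockdown in culture, shRNA2 alone gave 3 members (8.68% of all genes) and each left-out library gave 0 (0 to 0). Leaving out single libraries gave 2 to 6 members for culture against transplantation. DESeq2 called 1 member, Etv6, in the interaction. The accessible regions called at members numbered 19 at any fold, 11 with 50 kb upstream and 9 without the filter. The H3K27ac peaks called numbered 0 with 0.5 added, 0 with scaling to the same median, 0 with limma, and 1 to 3 with a library left out. The cause of these changes was not tested.

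Directions turned only for values that did not pass: Elf1 in culture with shRNA2 alone (-0.016) and, after transplantation with shRNA1 alone, Spi1 (-0.038), Ets1 (0.11) and Ets2 (0.070). Leaving out a library gave -0.058 to 0.033 for Etv6 and -0.046 to 0.0075 for Ets2 with age, and after transplantation -0.023 to 0.11 for Spi1, -0.089 to 0.0033 for Ets2 and -0.0072 to 0.075 for Gabpa. It gave -0.31 to 0.29 for Ets2 between MEP and GMP, -0.54 to 0.063 for Ets2 between GMP and CMP, -0.011 to 0.054 for Elf1 between culture and transplantation, and -0.051 to 0.016 for Elf1 in the interaction.

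Over all genes, the calls of the culture knockdown went from 665 to 1299 without the filter, 1789 with shRNA1 alone and 1715 with shRNA2 alone, and to 141 and 150 without either control. Those of the interaction went from 45 to 299 (DESeq2), 94 (no filter) and 26 (block), and to between 1 and 117 with a library left out. Those of age went from 4434 to 2606 without both young libraries highest in B cell markers.

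Same-numbered libraries deviated from their group means with correlations of -0.22 to 0.13. In groups of 2 libraries these values repeat by construction, so they cannot settle whether same-numbered libraries shared a preparation. With the replicate block, 5 members passed with age, 0 in culture, 0 after transplantation, 7 and 7 for MEP against GMP and CMP, 4 for GMP against CMP, 5 for culture against transplantation and 9 for YHSC against CMP, and limma with the block called 0 H3K27ac peaks.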
